A study of Mus musculus with 6 samples.

Results

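Guidance cues are secreted or membrane-bound ligands that attract or repel cells through matched receptors on the cell surface. The set described here comprised 70 of the 78409 genes in the deposited table: every protein-coding gene named as a semaphorin, plexin, neuropilin, ephrin, Eph receptor, netrin, UNC5 receptor, slit or Robo receptor, together with Dcc and Neo1. By role they were 35 ligands and 35 receptors. Of these, 53 had enough counts to be tested, 31 ligands and 22 receptors.

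The RNA came from nephrogenic stroma, the fibroblast-like cells that surround forming nephrons in the fetal kidney. Kidneys of CD1 mice, wild-type in genotype, were pooled at embryonic day 18. Cells of both groups were sorted for the surface receptor PDGFRa in a buffer that held the kinase inhibitor Y27632 and were cultured for 18 h in medium with fetal bovine serum on coverslips coated with the silicone PDMS before polyadenylated RNA was sequenced. Bovine fibronectin, a matrix protein that cells adhere to, had been applied to the coverslips at 500 ng/mL (low adhesion) or 50000 ng/mL (high adhesion). Each of 3 litters gave 1 library on each substrate, so the comparison was made within litters, and no uncultured stroma was analysed here.

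Semaphorins signal through plexins, and the secreted class 3 members bind neuropilins as co-receptors, which also bind VEGF. Ephrins are tethered to the membrane and bind Eph receptor tyrosine kinases on neighbouring cells, so ligand and receptor can each signal in the cell that carries them. Netrins act through DCC, neogenin and UNC5 receptors, and slits through Robo receptors. These families are best known from growing axons and also act on vessels and on epithelia, and in the kidney slit and Robo signalling limits where the ureteric bud forms.

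The libraries held 12596249 to 13508257 counts, of which the guidance genes took 0.14% to 0.146%. Levels are given as CPM, the count relative to the library's TMM-scaled total over tested genes, and 1 count stood for 0.074 to 0.0805 CPM. All 9 stromal markers listed for a check of the cell type were detected, with a summed level of 5461 to 6291 CPM at low and 5359 to 6294 CPM at high adhesion. Of these 7 fell, among them Pdgfra (mean 30.8 to 21.1 CPM), and Vim rose. Most of the sum was Vim (mean 3345 to 3632 CPM) and Col1a1 (1597 to 1378 CPM), which fell. Of 7 endothelial markers, summing to 67.2 to 87.8 CPM at low and 70.4 to 99.4 CPM at high adhesion, 6 were tested. Flt1 (25.7 to 54.2 CPM over all libraries) rose and Emcn (16.9 to 38.1 CPM) fell. Kdr had 9.10 to 16.3 CPM, and Pecam1, Cdh5, Tek and Cldn5 stayed at or below 2.02 CPM. Of 7 neuronal and Schwann cell markers, summing to 20.0 to 30.6 and 29.6 to 32.3 CPM, 3 were tested and Tubb3 and Elavl4 rose; Sox10 was at or below 0.0776 CPM. Of 4 podocyte markers (4.32 to 6.11 and 4.27 to 8.15 CPM) 2 were tested and Podxl rose. Nephron progenitor markers summed to 31.2 to 51.9 and 36.9 to 57.1 CPM, and of 5 tested Cited1 rose and Tmem100 (mean 1.27 to 0.383 CPM) fell. Leukocyte markers summed to 21.6 to 39.6 and 15.1 to 35.5 CPM, and of 6 tested 0 passed. The part of these cells in the results was not tested. In these bulk samples fewer cells of a type and less RNA per cell cannot be told apart.

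Of the 53 tested guidance genes 12 changed (22.6%), against 9.55% of all 14834 tested genes. At high adhesion 7 were higher (13.2%, against 4.71% of all genes) and 5 lower (9.43%, against 4.83%). The test was edgeR's quasi-likelihood test with litter as a block and an adjusted p threshold of 0.05. The genes that rose were the ligands Ntn4, Sema6a and Sema5a and the receptors Epha2, Epha4, Nrp2 and Plxna1. Those that fell were the ligand Ntn1 and the receptors Unc5b, Neo1, Robo1 and Nrp1. Each of the 12 went the same way in 3 of 3 litters, a pattern that blocking on litter favours. The changes were small, from 1.15-fold for Neo1 to 1.67-fold for Robo1. Abundant genes are called more readily: where the mean reached 5 CPM, 11 of 31 guidance genes passed (35.5%) and 12.1% of all genes.

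**Figure D1:**
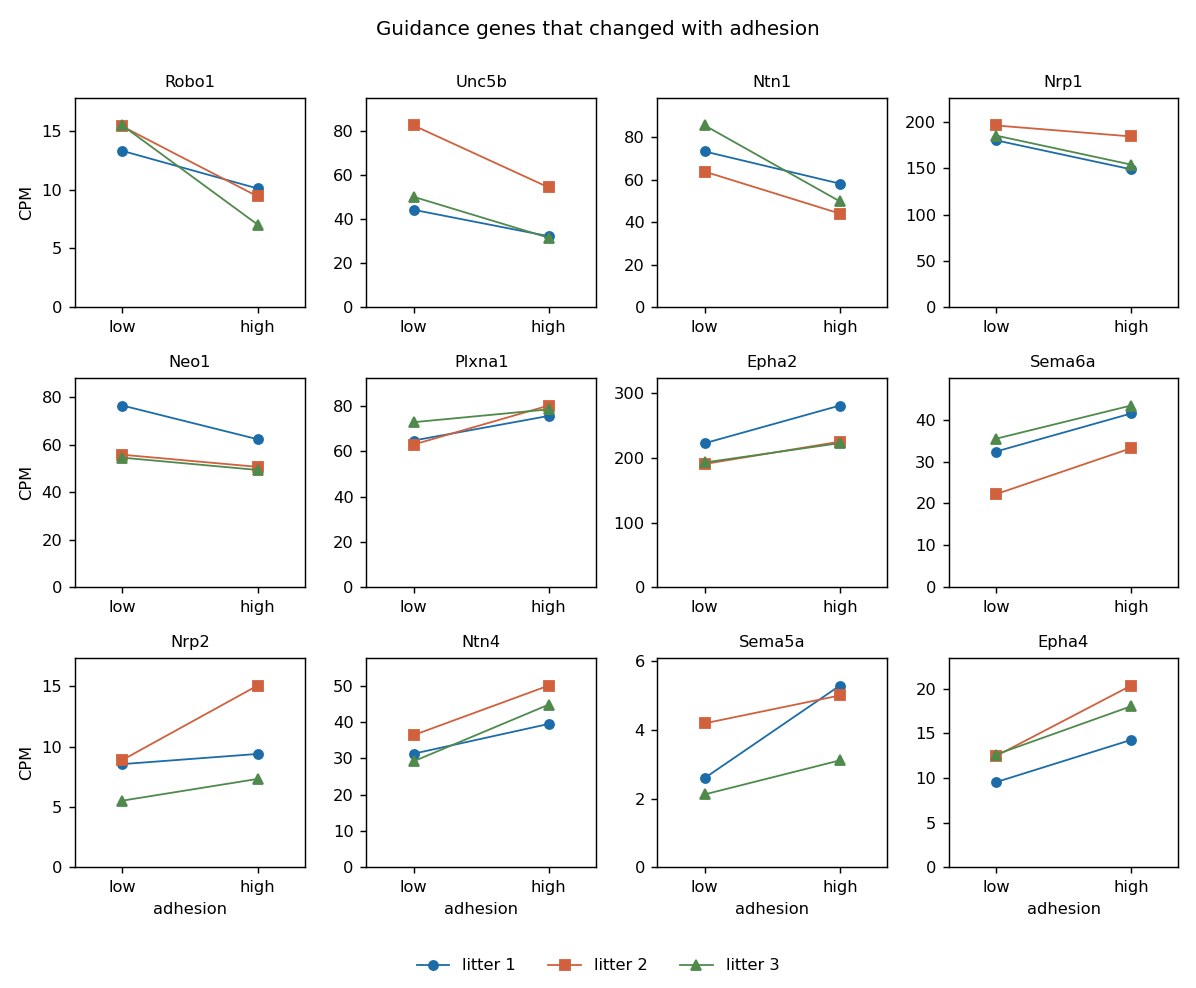
Level in CPM (vertical axes, each starting at 0) of the 12 guidance genes that passed the test, on low and high adhesion substrates (horizontal axes), with 1 line for each of the 3 litters. Panels run from the largest fall, Robo1, to the largest rise, Epha4, and in each panel all 3 lines slope the same way.

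The groups of 3 libraries did not overlap for 8 of the 53 tested guidance genes (15.1%), a share like the 15.6% of all tested genes. Those 8 were Robo1, Ntn1, Ntn4, Epha4, Epha2, Plxna1, Plxnb1 and Sema6d, the last 2 without passing the test. The remaining 6 genes that passed overlapped between the substrates. Without the replicate block 0 of the 53 passed in edgeR, against 0.243% of all tested genes. In that fit 7 had an unadjusted p under 0.05, a count for which no share over all genes is given here. DESeq2 with the block called 8 of the 12, and 2.74% of all tested genes.

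Promoter sequences of the changed genes are shown for those whose upstream window held a match to a motif of an adhesion- or serum-responsive factor, and for the netrin receptors that fell. The windows are the 250 bases before the RefSeq start, build GRCm38.p6, which is not the build GRCm39 of the counts; 9 of the 12 changed genes had an entry, and Ntn1, Sema6a and Plxna1 did not. Both strands were searched for GGAATG (TEAD factors), TGANTCA (AP-1) and the CArG box of SRF, and capitals mark the matches. Epha2 lies at chr4:141300971-141301220 (plus strand), Robo1 at chr16:72662899-72663148 (plus strand), Unc5b at chr10:60831582-60831831 (minus strand) and Neo1 at chr9:59036442-59036691 (minus strand).
Epha2: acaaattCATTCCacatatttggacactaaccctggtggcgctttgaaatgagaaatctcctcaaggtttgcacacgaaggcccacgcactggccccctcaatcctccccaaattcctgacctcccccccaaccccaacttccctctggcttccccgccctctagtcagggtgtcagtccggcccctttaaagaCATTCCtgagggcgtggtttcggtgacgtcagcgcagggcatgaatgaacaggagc
Robo1: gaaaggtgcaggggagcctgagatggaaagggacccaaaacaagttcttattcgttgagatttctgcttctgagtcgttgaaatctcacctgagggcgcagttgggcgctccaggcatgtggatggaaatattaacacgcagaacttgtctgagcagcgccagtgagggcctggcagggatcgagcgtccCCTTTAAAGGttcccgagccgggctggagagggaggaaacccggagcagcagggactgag
Unc5b: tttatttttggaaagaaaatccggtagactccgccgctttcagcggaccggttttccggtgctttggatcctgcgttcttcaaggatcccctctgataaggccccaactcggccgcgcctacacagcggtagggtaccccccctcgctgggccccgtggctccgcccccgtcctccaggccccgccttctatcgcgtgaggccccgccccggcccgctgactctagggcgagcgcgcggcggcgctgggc
Neo1: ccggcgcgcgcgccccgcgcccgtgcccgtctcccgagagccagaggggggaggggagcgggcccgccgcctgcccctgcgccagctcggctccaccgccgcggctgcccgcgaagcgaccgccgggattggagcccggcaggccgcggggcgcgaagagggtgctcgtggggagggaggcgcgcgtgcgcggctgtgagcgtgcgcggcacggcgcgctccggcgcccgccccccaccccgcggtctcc

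The Epha2 window held 2 TEAD motifs on the reverse strand, 51 and 238 bases before the start, and the Robo1 window 1 CArG box, 51 bases before the start. Of 9 windows of changed genes 1 held a TEAD motif, 1 a CArG box and 0 an AP-1 motif. Among the 76 windows of all guidance genes with an entry, changed or not, these numbers were 8, 2 and 3. Over all 32851 windows of the same length the shares were 12.6%, 1.47% and 6.75%. The matches are a description of these letters, and the windows of Unc5b, Neo1, Ntn4, Nrp1, Nrp2, Epha4 and Sema5a held none.

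Ligands and receptors were compared by counts, medians and summed levels. Of 31 tested ligands 4 passed (12.9%), 3 higher and 1 lower, and of 22 tested receptors 8 passed (36.4%), 4 in each direction. Of all tested genes 9.55% passed, 4.71% higher and 4.83% lower. The difference between these shares was not tested. The median log2 fold change was -0.02 for ligands, -0.07 for receptors and -0.00 for all tested genes, and the median size of the change, whatever its sign, was 0.15, 0.19 and 0.10.

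Levels of different genes were compared per kilobase of exon sequence, which assumes reads along the whole transcript; where along the transcript reads fall is not given in the sources used here. Summed over all 35 ligands, the level was 114 ± 6.47 CPM per kb at low and 115 ± 2.08 CPM per kb at high adhesion (SD, n = 3 each). Over the 35 receptors it was 124 ± 3.41 and 128 ± 6.80 CPM per kb (SD, n = 3 each). The ratio of the ligand to the receptor sum was 0.905, 0.855 and 1.01 at low adhesion in litters 1 to 3, and 0.846, 0.880 and 0.972 at high adhesion. It went down in litters 1 and 3 and up in litter 2. Without Efna2 and Epha2, the highest ligand and the highest receptor per kb, the mean ratio was 1.21 at low and 1.30 at high adhesion, and it was higher at high adhesion in 3 of 3 litters.

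**Figure D2:**
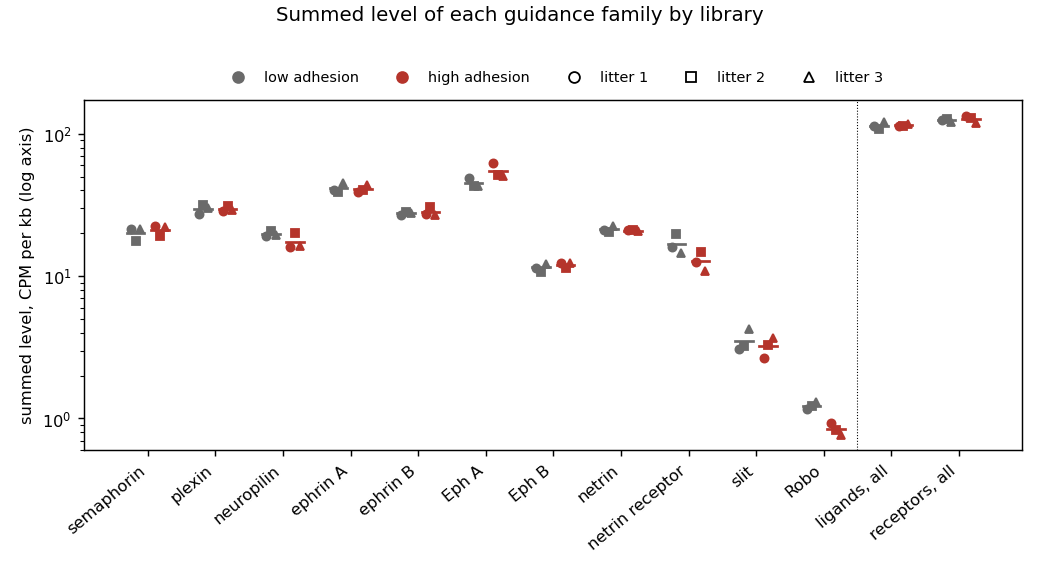
Summed level of each guidance family in CPM per kb (log axis) in every library, grey for low and red for high adhesion, with horizontal bars at the means of 3 and a marker shape for each litter. The A-type Eph receptors, mostly Epha2, were the most abundant receptor family. The netrin receptor and Robo sums lay lower at high adhesion in every litter, and the sums of all ligands and of all receptors overlapped between the substrates.

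By family sum, A-type Eph receptors went from 45.2 ± 3.45 to 54.8 ± 6.65 CPM per kb (SD, n = 3 each). Epha2 alone made up 43.3 and 52.0 CPM per kb of these sums. Netrin receptors went from 16.8 ± 2.79 to 12.8 ± 1.96 CPM per kb (SD, n = 3 each). Robo receptors went from 1.23 ± 0.0714 to 0.842 ± 0.0763 CPM per kb (SD, n = 3 each). The netrin sum was 21.3 ± 0.996 and 20.9 ± 0.212 CPM per kb (SD, n = 3 each); within it Ntn1 fell and Ntn4 rose.

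Netrins and their receptors held 4 of the 12 changed genes among 6 tested (66.7%, against 9.55% of all tested genes). Ntn1 (ENSMUSG00000020902), netrin-1, a secreted laminin-related cue, measured 73.4, 63.9 and 85.6 CPM at low adhesion in litters 1 to 3 and 58.2, 44.1 and 49.9 CPM at high adhesion. Every high adhesion library lay below every low adhesion library. It fell 1.46-fold (log2 fold change -0.55, SE 0.07; edgeR adjusted p = 5.66e-06), where SE is the standard error from the fit with 3 libraries per substrate.

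Ntn4 (ENSMUSG00000020019), netrin-4, which binds laminin in basement membranes, went the other way. Its levels were 31.3, 36.4 and 29.2 CPM at low adhesion and 39.5, 50.1 and 44.8 CPM at high adhesion, again without overlap. It rose 1.39-fold (log2 fold change 0.47, SE 0.07; edgeR adjusted p = 1.76e-05). Per kilobase, the ratio of Ntn4 to Ntn1 was 0.716, 0.957 and 0.573 at low and 1.14, 1.90 and 1.51 at high adhesion. Whether it exceeds 1 depends on the division by exon length: in CPM, Ntn1 stayed above Ntn4 at high adhesion in litters 1 and 3. The mean log2 change of this ratio was 1.02 ± 0.36 (SD over 3 litter pairs), and the exact sign-flip test over 3 pairs gave a two-sided p of 0.25, the smallest it can give. As Ntn1 fell and Ntn4 rose in each litter, the test could give no other value and adds no support. Ntn3 had means of 4.16 ± 1.10 and 4.07 ± 1.42 CPM (SD, n = 3 each) and did not pass (edgeR adjusted p = 0.935).

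Unc5b (ENSMUSG00000020099), a netrin receptor also known from endothelium, measured 44.3, 82.6 and 50.2 CPM at low and 32.3, 54.4 and 31.6 CPM at high adhesion. The high adhesion library of litter 2 lay above the low adhesion libraries of litters 1 and 3, so the groups overlapped, yet within each litter the level fell. The fall was 1.49-fold (log2 fold change -0.58, SE 0.06; edgeR adjusted p = 2.89e-07). Levels by litter follow for the stromal and the endothelial markers. Pdgfrb, a receptor of stroma and pericytes, measured 48.4, 82.9 and 57.4 CPM at low and 40.7, 51.5 and 35.1 CPM at high adhesion. Pdgfra, the sorting marker, had 33.8, 26.6 and 32.0 CPM at low and 26.2, 17.2 and 19.8 CPM at high adhesion. It also fell but was lowest in litter 2 on both substrates. Of the other stromal markers, Col3a1, Meis1, Tcf21 and Vim were highest in litter 2 on both substrates. Foxd1 was highest there only at high adhesion, and Col1a1 and Col1a2 only at low adhesion. Emcn, an endothelial marker, had 25.7, 38.1 and 23.2 CPM at low and 19.5, 33.3 and 16.9 CPM at high adhesion. Pdgfrb and Emcn were highest in litter 2 on both substrates and fell, and Flt1 was highest in litter 2 and rose. The other endothelial markers Kdr, Tek, Cdh5 and Cldn5 were lowest in litter 2 on both substrates. Pecam1 was highest there at low and lowest at high adhesion. Tek, Cdh5, Cldn5 and Pecam1 stayed at or below 2.02 CPM, a low level at which the order of litters is uncertain. Cldn5 was not tested, and Kdr, Tek, Cdh5 and Pecam1 did not pass. The part of these cells in the Unc5b result was not tested.

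Neo1 (ENSMUSG00000032340), neogenin, binds netrins and the repulsive guidance molecules. Its levels were 76.4, 55.7 and 54.5 CPM at low and 62.3, 50.6 and 49.4 CPM at high adhesion, with litter 1 highest on both substrates. The fall was 1.15-fold (log2 fold change -0.20, SE 0.06; edgeR adjusted p = 0.031). DESeq2 gave an adjusted p of 0.398, and edgeR gave 0.348 without litter 1 and 0.0691 without litter 3. Unc5c, with means of 3.34 and 3.19 CPM, did not pass, and Dcc, the classical netrin receptor of axons, had 3 counts over all 6 libraries.

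Of 8 tested Eph receptors 2 rose, Epha2 and Epha4, and of 8 ephrins 0 passed. Together 2 of 16 passed (12.5%), against 9.55% of all tested genes. Epha2 (ENSMUSG00000006445), an A-type Eph receptor, was the most abundant guidance gene in CPM and per kb. It measured 222.8, 191 and 193 CPM at low and 281, 225 and 223.0 CPM at high adhesion; the lowest high adhesion library, litter 3, lay just above the highest low adhesion library, litter 1. The rise was 1.20-fold (log2 fold change 0.26, SE 0.04; edgeR adjusted p = 0.000102).

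Epha4 (ENSMUSG00000026235), which binds ephrins of both classes, had 9.55, 12.5 and 12.6 CPM at low and 14.3, 20.4 and 18.1 CPM at high adhesion, without overlap. Its 1.52-fold rise was the largest among the tested guidance genes that passed upwards (log2 fold change 0.60, SE 0.09; edgeR adjusted p = 4.19e-05). Epha7 and Epha3, the other tested A-type receptors, did not pass (edgeR adjusted p = 0.897 and 0.421). Among the B-type receptors Ephb4, Ephb2, Ephb3 and Ephb6 were tested and none passed, with 0 at an unadjusted p under 0.05 in edgeR and 0 calls in DESeq2 and limma-voom. Ephb4, the most abundant of them, had 47.2 ± 3.58 and 49.4 ± 2.41 CPM (SD, n = 3 each), with a 95% interval of the log2 fold change from -0.06 to 0.19.

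Epha1 (ENSMUSG00000029859) was below the count filter. It had 1, 4 and 4 counts at low and 12, 11 and 10.5 counts at high adhesion, and the groups did not overlap. With no filter on low counts edgeR gave an adjusted p of 0.00576. Of 9 markers of kidney epithelium 7 were tested and 2 rose, Krt8 and Krt18. The list had a summed level of 231 to 532 CPM at low and 368 to 777 CPM at high adhesion. Most of this sum was Krt18, with 494, 200 and 310 CPM at low and 729, 332 and 576 CPM at high adhesion. Pax8, Ret and Lhx1 stayed at or below 1.41 CPM. Ret and Lhx1, not tested, had lower means at high adhesion, and Pax8 a higher one. Epcam averaged 5.93 and 7.46 CPM (edgeR adjusted p = 0.1), and Cdh1 1.01 and 1.30 CPM. Wnt11 averaged 8.95 and 7.94 CPM, and Cdh16 4.82 and 5.31 CPM (edgeR adjusted p = 0.584 and 0.649). Their part in the Eph receptor results was not tested.

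All 8 ephrins were tested and none passed, with 0 at an unadjusted p under 0.05 in edgeR and 0 calls in DESeq2, in limma-voom and in each other alternative; without litter 2, 1 A-type ephrin had an unadjusted p under 0.05. Efnb2 (ENSMUSG00000001300), the ephrin of arterial endothelium, had 92.6 ± 4.08 and 91.5 ± 8.37 CPM, with a 95% interval of the log2 fold change from -0.12 to 0.09. Efnb1 had 47.2 ± 2.32 and 49.3 ± 2.87 CPM with an interval from -0.07 to 0.19, and Efna5 had 45.9 ± 8.86 and 44.1 ± 3.12 CPM with an interval from -0.19 to 0.09. Efna2, the highest ligand per kb at 16.5 CPM per kb at low adhesion, had 35.1 ± 1.28 and 35.5 ± 3.67 CPM with an interval from -0.12 to 0.15 (SD, n = 3 each for these 4 genes). Efna4 averaged 18.9 and 18.8 CPM, and Efna3, Efna1 and Efnb3 between 1.60 and 2.28 CPM on either substrate.

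**Figure D3:**
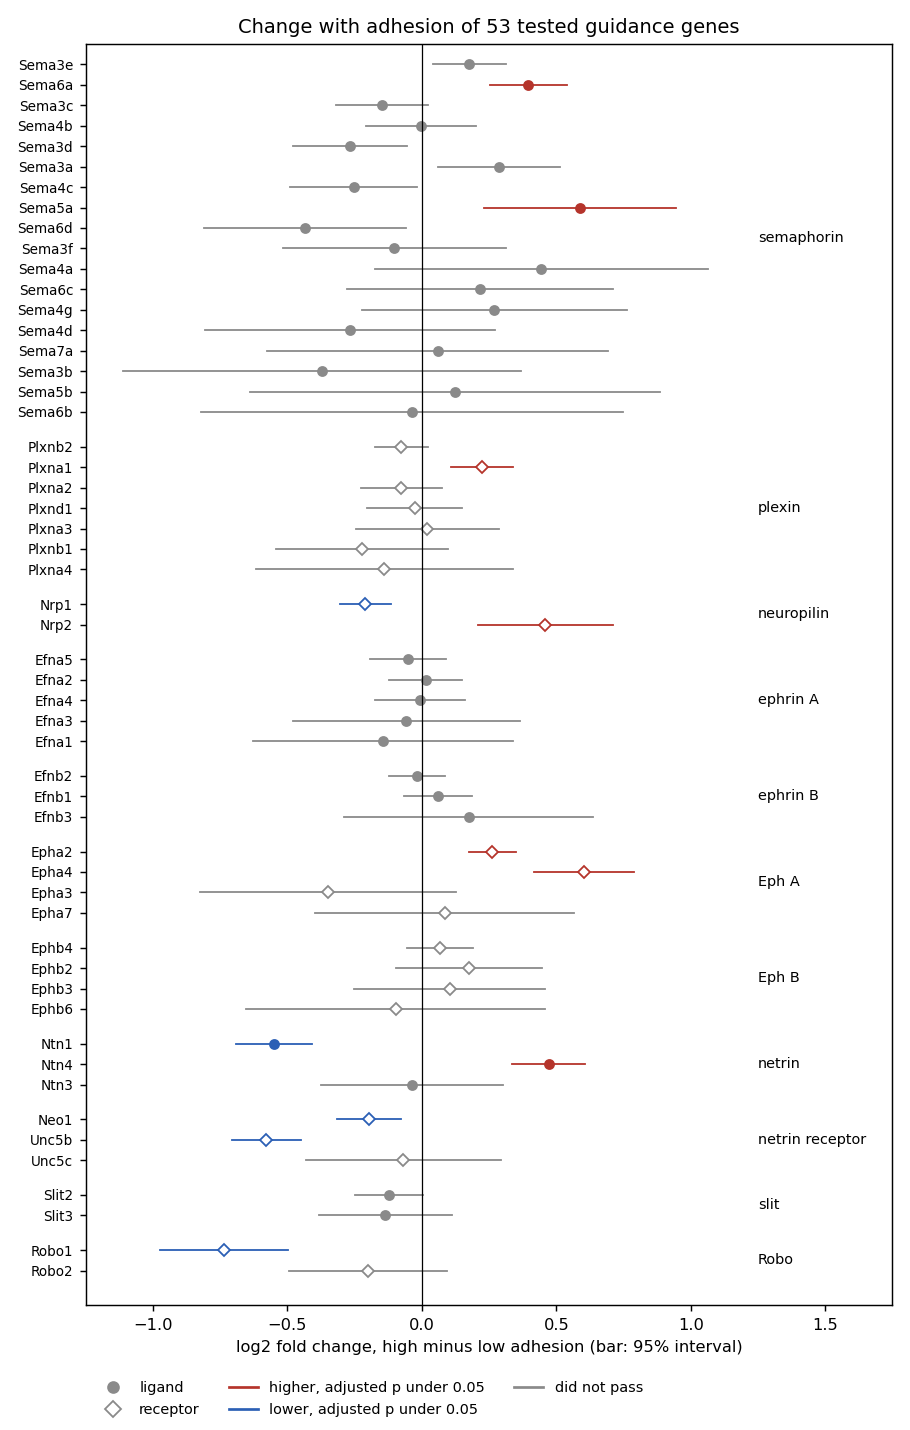
Log2 fold change from low to high adhesion (horizontal axis) with its 95% interval for the 53 tested guidance genes, by family and within a family by falling level, filled circles for ligands and open diamonds for receptors. The 7 genes that rose (red) and the 5 that fell (blue) lie in netrins, netrin receptors, semaphorins, plexins, neuropilins, A-type Eph receptors and Robo receptors; the ephrins, B-type Eph receptors and slits are all grey.

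The semaphorin family had the most tested members, 18, of which 2 passed, both higher. That share of 11.1% was near the 9.55% of all tested genes. Sema6a (ENSMUSG00000019647), a transmembrane ligand of A-type plexins, measured 32.4, 22.2 and 35.4 CPM at low and 41.5, 33.2 and 43.4 CPM at high adhesion. Litter 2 was lowest on both substrates, which made the groups overlap. The rise was 1.32-fold (log2 fold change 0.40, SE 0.07; edgeR adjusted p = 0.000251).

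Sema5a (ENSMUSG00000022231), a transmembrane semaphorin with thrombospondin repeats, was a low-level gene with 288.5 counts over all libraries. It had 2.60, 4.18 and 2.12 CPM at low and 5.28, 4.99 and 3.11 CPM at high adhesion, with overlapping groups and the largest step in litter 1. Its change on the log2 scale was 0.59 (SE 0.17; edgeR adjusted p = 0.0296). DESeq2 gave an adjusted p of 0.558, and without litter 1 edgeR gave 0.381 and a log2 fold change of 0.36.

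A further 5 guidance genes had an unadjusted edgeR p under 0.05 without passing the adjusted threshold, and all 5 were semaphorins. Semaphorins made up 16 of the 41 tested guidance genes that did not pass. The share of all tested genes with such a p is not given here, so no family trait is read from this count. The secreted Sema3e, the most abundant semaphorin, had 51.0, 32.8 and 43.8 CPM at low and 52.0, 42.5 and 48.8 CPM at high adhesion, with a log2 fold change of 0.18 (edgeR adjusted p = 0.0999). Without litter 1 it passed (adjusted p = 0.0478; 0.0478 to 0.827 over all alternatives). For Sema3a, a repulsive cue for axons, it was 0.29 (edgeR adjusted p = 0.107), while those of Sema3d, Sema4c and Sema6d were -0.27, -0.25 and -0.43 (adjusted p = 0.111, 0.189 and 0.158). Class 3 members thus had values on both sides of 0. Sema3c, Sema4b, Sema3f, Sema4a, Sema6c, Sema4g, Sema4d, Sema7a, Sema3b, Sema5b and Sema6b did not pass either, with adjusted p from 0.318 to 0.99. Without litter 2 Sema4a passed (edgeR adjusted p = 0.0194; 0.0194 to 0.992 over the alternatives that tested it), with a log2 fold change of 0.95 against 0.44 in all 3 litters.

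The neuropilins moved in opposite directions. Nrp1 (ENSMUSG00000025810) measured 180, 196 and 185 CPM at low and 149, 184 and 154 CPM at high adhesion, with litter 2 highest on both substrates and overlapping groups. It fell 1.16-fold (log2 fold change -0.21, SE 0.05; edgeR adjusted p = 0.00289), and missed the threshold without litter 1 (0.0507) and without litter 3 (0.0676).

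Nrp2 (ENSMUSG00000025969) had 8.55, 8.90 and 5.53 CPM at low and 9.39, 15.1 and 7.32 CPM at high adhesion. The step was largest in litter 2, and the groups overlapped. The change on the log2 scale was 0.46 (SE 0.12; edgeR adjusted p = 0.015). DESeq2 gave an adjusted p of 0.438, and without litter 2 edgeR gave 0.346 and a log2 fold change of 0.25. Per kilobase the ratio of Nrp2 to Nrp1 was between 0.0246 and 0.0392 at low and between 0.0393 and 0.0675 at high adhesion, higher in 3 of 3 litters (exact sign-flip test over 3 pairs, two-sided p = 0.25, the smallest possible). As Nrp2 rose and Nrp1 fell in each litter, the test could give no other value and adds no support. Nrp1 remained the main neuropilin transcript in all 6 libraries.

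Among plexins, the signalling receptors of semaphorins, 1 of 7 tested passed (14.3%, against 9.55% of all tested genes). Plxna1 (ENSMUSG00000030084) had 64.8, 63.0 and 72.8 CPM at low and 75.6, 80.2 and 78.5 CPM at high adhesion, without overlap. It rose 1.17-fold (log2 fold change 0.23, SE 0.06; edgeR adjusted p = 0.00891). DESeq2 gave an adjusted p of 0.171, and edgeR gave 0.0721 without litter 2. Plxnb2, the most abundant plexin, had 131 ± 13.6 and 124 ± 4.76 CPM (SD, n = 3 each), and the 95% interval of its log2 fold change ran from -0.17 to 0.02. Plxna2, Plxnd1, Plxna3, Plxnb1 and Plxna4 did not pass, with adjusted p from 0.463 to 0.954.

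In the slit and Robo family the receptor Robo1 had the largest change of all tested guidance genes that passed. Robo1 (ENSMUSG00000022883) measured 13.3, 15.4 and 15.4 CPM at low and 10.1, 9.42 and 7.03 CPM at high adhesion, and every high adhesion library lay below every low adhesion library. The fall was 1.67-fold (log2 fold change -0.74, SE 0.12; edgeR adjusted p = 0.000102). Robo2, which with Slit2 limits ureteric budding, had 5.42 ± 0.549 and 4.72 ± 0.895 CPM (SD, n = 3 each) and did not pass (edgeR adjusted p = 0.469).

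Slit2, the main slit transcript, had 49.8, 51.4 and 65.6 CPM at low and 43.2, 52.5 and 57.5 CPM at high adhesion. Its log2 fold change was -0.12 (edgeR adjusted p = 0.248), and without litter 2 it passed at -0.20 (adjusted p = 0.0436; 0.0436 to 0.888 over all alternatives). Slit3 had 7.73 and 7.04 CPM and did not pass (edgeR adjusted p = 0.578).

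Litters differed in 22 of the 53 tested guidance genes (41.5%) in the edgeR test between litters, against 17.9% of all tested genes. Epha3, an A-type Eph receptor, had 5.40 and 3.87 CPM in the low and high adhesion libraries of litter 2 and between 0.444 and 0.932 CPM in the other 4 libraries (edgeR adjusted p = 1.06e-08 between litters). Unc5b had the lowest p between litters (edgeR adjusted p = 1.42e-09), with litter 2 averaging 68.5 CPM against 38.3 and 40.9 CPM in litters 1 and 3. Sema3a averaged 6.89, 12.97 and 10.1 CPM in litters 1, 2 and 3. Of the 12 genes that changed with adhesion, Plxna1 and Robo1 did not differ past the threshold between litters (edgeR adjusted p = 0.474 and 0.749) and the other 10 did.

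**Figure D4:**
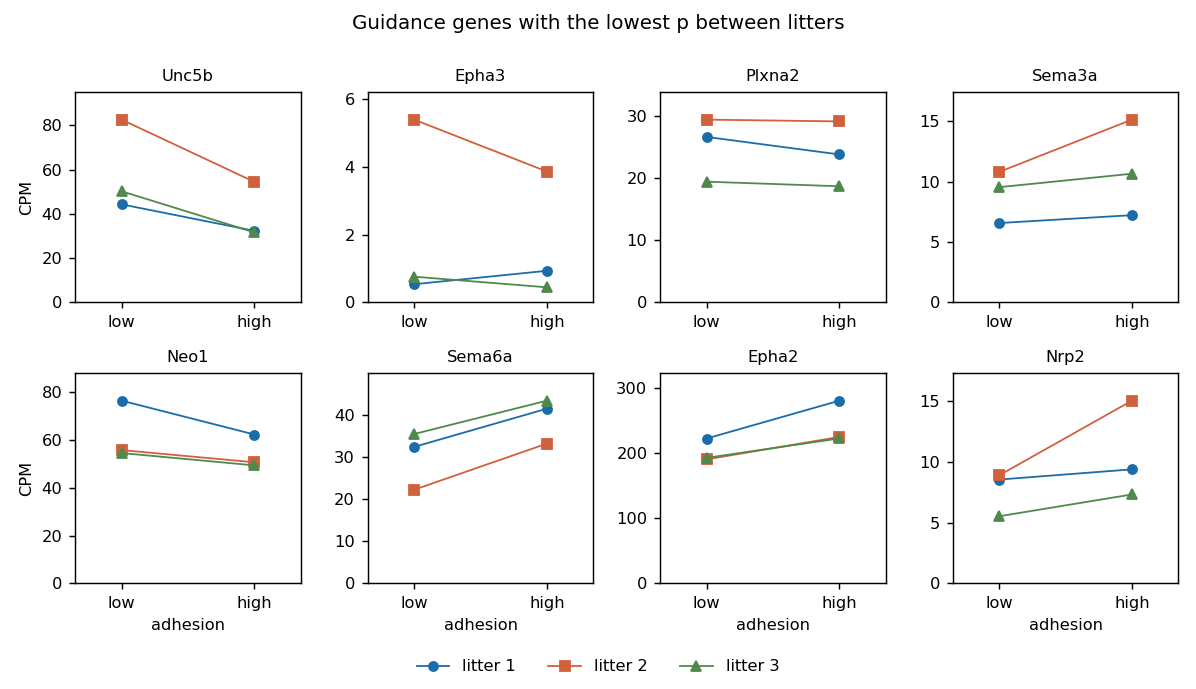
Level in CPM (vertical axes, from 0) on low and high adhesion substrates (horizontal axes) of the 8 guidance genes with the lowest p between litters, with 1 line for each litter. Litter 2 stands above the others for Unc5b and Epha3 and below them for Sema6a, while litter 1 stands above for Neo1 and Epha2.

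A further 17 guidance genes were below the count filter: the ligands Sema4f, Sema3g, Ntn5 and Slit1 and the receptors Plxnc1, Plxnb3, Epha1, Epha5, Epha8, Epha10, Epha6, Ephb1, Unc5a, Unc5d, Dcc, Robo4 and Robo3. Their counts over all 6 libraries ran from 1 for Plxnb3, Epha10, Epha6 and Ntn5 to 56 for Plxnc1. Robo4 and Sema3g, known from endothelium, had 8 and 10 counts. With no filter on low counts Epha1 passed in edgeR and the other 16 did not.

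Other genes of these pathways were taken from a list of 61 co-ligands, co-receptors and signalling partners, of which 55 were tested. Of these 9 passed (16.4%), 5 higher and 4 lower, against 9.55% of all tested genes and 12.1% of those with a mean of at least 5 CPM. Rgma, a membrane-anchored ligand of neogenin, went from 19.5 ± 2.101 to 30.2 ± 0.897 CPM (SD, n = 3 each), a 1.55-fold rise (edgeR adjusted p = 3.04e-06), while its receptor gene Neo1 fell. Flrt2, a membrane protein that binds UNC5 receptors, went from 34.3 ± 3.32 to 26.7 ± 3.78 CPM, a 1.29-fold fall (edgeR adjusted p = 0.00109). Vegfa, a ligand of neuropilins, rose 1.18-fold (edgeR adjusted p = 0.00918). Flt4, a VEGF receptor that pairs with neuropilin-2, averaged 2.05 ± 0.462 and 3.28 ± 1.18 CPM on the low and high substrates (SD over 3 libraries), a rise with an edgeR adjusted p of 0.0236.

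Within the cell, the actin regulator gene Enah and the kinase gene Fyn rose 1.16-fold each. The kinase gene Fer fell 1.31-fold, and the GTPase exchange factor genes Farp1 and Arhgef12 fell 1.23-fold and 1.15-fold. The GTPase genes Rhoa, Rac1 and Cdc42 and the collapsin response genes Dpysl2 and Dpysl3 did not pass (edgeR adjusted p from 0.304 to 0.98). DESeq2 called 2 of the 55, and 1 passed without the replicate block, against 2.74% and 0.243% of all tested genes.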

How the data were processed

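The 6 libraries of cultured fetal stroma, 3 per substrate, were analysed as deposited. The authors trimmed, aligned and counted reads with fastp 0.24.0, STAR 2.7.11, SAMtools 1.22.1 and featureCounts of Subread 2.1.1 on build GRCm39, per the submitters' processing notes. The sources used here do not give the strand setting or annotation release, so antisense and overlapping genes cannot be told apart. The authors deposited estimated counts per gene and the CPM made from them; CPM in the text were recomputed on the tested genes' totals scaled by TMM. Of the guidance genes 22 had a fractional count in at least 1 library, by at most 1.82% of the count for the genes that passed.

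Counts were rounded and fitted over the whole table with edgeR 4.0.16 (R 4.3.3): filterByExpr, TMM scaling, robust quasi-likelihood test with litter as a block, Benjamini-Hochberg adjustment over 14834 genes, threshold 0.05, two-sided. Standard errors are the log2 fold change over the root of F. Samples were paired by the litter number in the labels, and same-litter libraries deviated together (correlations 0.575, 0.576 and 0.361 across genes). Replicates are separate litters of pooled kidneys. Exon lengths came from GENCODE M21 (GRCm38) by gene identifier, for 70 of 70 genes. DESeq2 1.42.0 and limma 3.58.1 (voom) were alternatives, and the fit was tested on simulated data.

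Genes named are those that passed, the 2 of highest CPM per family, and the others by name, with up to 8 called genes of the partner list by adjusted p; Fyn, Rhoa, Rac1, Cdc42, Dpysl2 and Dpysl3 are named outside this rule, picked with their values known. The gene set and the lists were chosen with earlier results of these data known.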

Additional observations from a re-analysis of the deposited data

How the results depend on the processing

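Of 12 alternatives, the replicate block mattered most: with no replicate block 0 of the guidance genes passed, 0 higher and 0 lower, with 36 of all genes and 1 of the partner list. DESeq2 called 8 (4 higher), 406 of all genes, 2 of the partner list and 9 guidance genes between litters. Ntn1, Ntn4, Unc5b, Robo1, Epha2, Epha4 and Sema6a passed in every alternative with the block. Leaving out 1 litter gave 10 to 12 guidance genes, 6 to 8 higher and 3 to 6 lower, 908 to 1553 of all genes (908 without litter 3), 6 to 10 of the partner list and 12 to 16 between litters; without litter 1 or litter 3 the lower count was 3. Ephrins that did not pass changed sign: over fits that left out 1 litter the log2 fold change ran from -0.162 to 0.0429 for Efna5 (0.0429 without litter 3), from -0.0326 to 0.0677 for Efna2 (-0.0326 without litter 2) and from -0.0639 to 0.0179 for Efnb2 (0.0179 without litter 1). The ligand to receptor ratio was 0.665 at low and 0.662 at high adhesion without division by length, and 1.21 and 1.30 without the highest gene of each role. Scaling, filters, limma-voom and robust estimation each left 11 to 13 guidance genes called. Of 41 guidance genes that did not pass, 27 had a 95% interval within 1.5-fold either way, including all 20 with a mean of at least 5 CPM; the lower genes are less closely bounded at this depth.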
